A study of Mus musculus with 16 samples.

Results

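The miR-15, miR-16, miR-103 and miR-107 superfamily was followed in the prefrontal cortex of PS19 and wild-type (WT) mice by small RNA sequencing. Its 7 members are mmu-miR-15a-5p, mmu-miR-15b-5p, mmu-miR-16-5p, mmu-miR-195a-5p, mmu-miR-497a-5p, mmu-miR-103-3p and mmu-miR-107-3p, written without the species prefix from here on. They were chosen by mature name and no measured value entered the rule, although earlier results of these data were known. They are 7 of the 18488 RNA features of the table and 7 of its 1254 mature miRNA rows, and all 7 were found. PS19 mice were heterozygous for a transgene (labelled PS19+/-) that expresses human tau with the P301S mutation from the mouse prion promoter on a mixed B6;C3 background, and WT mice were littermates without it. Per the methods of the study, each genotype had 8 mice, males and females in equal number, about 9.6 months old, and blood was flushed out with PBS before the cortex was taken. Each mouse gave 1 library, so that there were 16 libraries, 8 per group, and libraries are named by genotype and replicate number. The comparison asks whether the abundance of these miRNAs in the cortex differs with tauopathy.

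A microRNA guides the Argonaute protein to messenger RNAs that pair with its seed, the bases near its 5′ end, and this lowers the output of those messengers. Members of the miR-15 group are known as brakes on the cell cycle and on survival genes such as Bcl2, and the locus that holds miR-15a and miR-16 is lost in many chronic lymphocytic leukaemias. miR-195 and miR-497 come from 1 transcript, whereas miR-103 and miR-107 are made from introns of the Pank genes, which encode pantothenate kinases, the enzymes that start coenzyme A synthesis. In neurons several members have been studied as regulators of tau kinases and of Bace1, the protease that makes the first cut towards amyloid β.

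The sequences show why these miRNAs are treated as 1 superfamily and where they part. They are RefSeq sequences (GRCm38.p6), 5′ to 3′, with the seed, bases 2 to 8, in capitals.
miR-15a-5p: uAGCAGCAcauaaugguuugug
miR-15b-5p: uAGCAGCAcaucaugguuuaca
miR-16-5p: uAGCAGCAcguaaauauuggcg
miR-195a-5p: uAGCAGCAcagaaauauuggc
miR-497a-5p: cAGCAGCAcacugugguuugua
miR-103-3p: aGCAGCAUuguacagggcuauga
miR-107-3p: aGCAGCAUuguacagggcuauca

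The longest run that all 7 members share within their first 8 bases was AGCAGCA, 7 bases long. It fills bases 2 to 8 in the miR-15 group and bases 1 to 7 in miR-103-3p and miR-107-3p, so that the seeds of both groups are the same core shifted by 1 base. Beyond the core, miR-16-5p and miR-195a-5p were identical at 19 of 21 compared bases. Counted from 1 at the 5′ end, with the base of miR-16-5p first, they differ by G10A and U11G. miR-15a-5p and miR-15b-5p were identical at 18 of 22 bases, with A12C as the first difference. miR-103-3p and miR-107-3p were identical at 22 of 23 bases and differ only by G22C, with the base of miR-103-3p first. Reads that end before base 22 therefore cannot be given to one or the other, and how such reads were assigned is not given in the sources used here.

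The genes lie in 3 clusters and 3 single loci (GRCm38). Mir15a and Mir16-1 lie within 217 bases on chromosome 14 (chr14:61631880-61632096, minus strand), Mir15a in an intron and Mir16-1 in an annotated exon of the non-coding gene Dleu2. Mir15a was placed by its mature arms, as the reference gave no hairpin for it, so this span leaves out the rest of its hairpin. Mir15b and Mir16-2 lie within 225 bases on chromosome 3 (chr3:69009772-69009996, plus strand) in an intron of Smc4, which encodes a condensin subunit. The mature miR-16-5p of both clusters has 1 sequence, so its count sums the loci. Mir497 and Mir195a lie within 419 bases on chromosome 11 (chr11:70234717-70235135, plus strand), outside any host gene in the annotation, and Mir497b is annotated on the opposite strand over Mir497. Mir103-1 (chr11:35782396-35782481, plus strand), Mir103-2 (chr2:131288052-131288137, plus strand) and Mir107 (chr19:34820687-34820773, minus strand) lie in introns of Pank3, Pank2 and Pank1. The mature sequence of miR-103-3p is the same from both of its loci.

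Libraries had 13.2 M to 23.1 M recovered reads, and mature miRNAs held 14.8% to 32.0% of the signal. Of 6024 features with a mean normalized count of at least 5, limma called 0 at an adjusted p under 0.05, edgeR called 0 and DESeq2 called 15. At an unadjusted p under 0.05, limma called 241 (4.0%), 112 higher and 129 lower in PS19. The split was 107 of 183 higher after scaling to the library total, 76 of 124 after scaling to the mature miRNA total and 150 of 265 with edgeR. Library codes in the labels start with G in all 8 PS19 libraries and in WT replicates 2 and 4, with F in 4 further WT libraries and with A in the other 2, and the meaning of the letter is not given in the sources used here. PS19 and WT can be set side by side within 1 letter only for G. The neuronal miRNAs miR-124-3p and miR-128-3p were abundant in every library, with miR-124-3p at 5333 to 20737 normalized counts. miR-1a-3p, miR-206-3p and miR-133a-3p of skeletal muscle summed to 2253 to 14631, and miR-122-5p of liver was at 132 to 654. In cortex tissue, fewer cells of a type and less RNA per cell cannot be told apart.

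The members spanned a wide range of levels. miR-103-3p held 88.4% of the summed signal of the 7 members and ranked 65 of 1254 mature miRNAs by mean level. miR-16-5p ranked 174, miR-107-3p 191, miR-195a-5p 265, miR-15b-5p 421, miR-497a-5p 490 and miR-15a-5p 569. Mature miRNAs are of nearly equal length, so their normalized counts can be set side by side, although ligation during library preparation favours some sequences. miR-103-3p exceeded miR-16-5p in 16 of 16 libraries, with a ratio of the counts from 8.72 to 37.6. miR-16-5p and miR-107-3p were not separated, since miR-16-5p was the higher in 12 of 16 libraries. miR-107-3p exceeded miR-195a-5p in 16 of 16 libraries, and miR-195a-5p exceeded miR-15b-5p in 16 of 16. At the bottom, miR-15b-5p was above miR-497a-5p in 14 of 16 libraries and miR-497a-5p above miR-15a-5p in 11 of 16. The plot of all members by library shows these steps and the overlap of the genotypes at each.

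**Figure D1:**
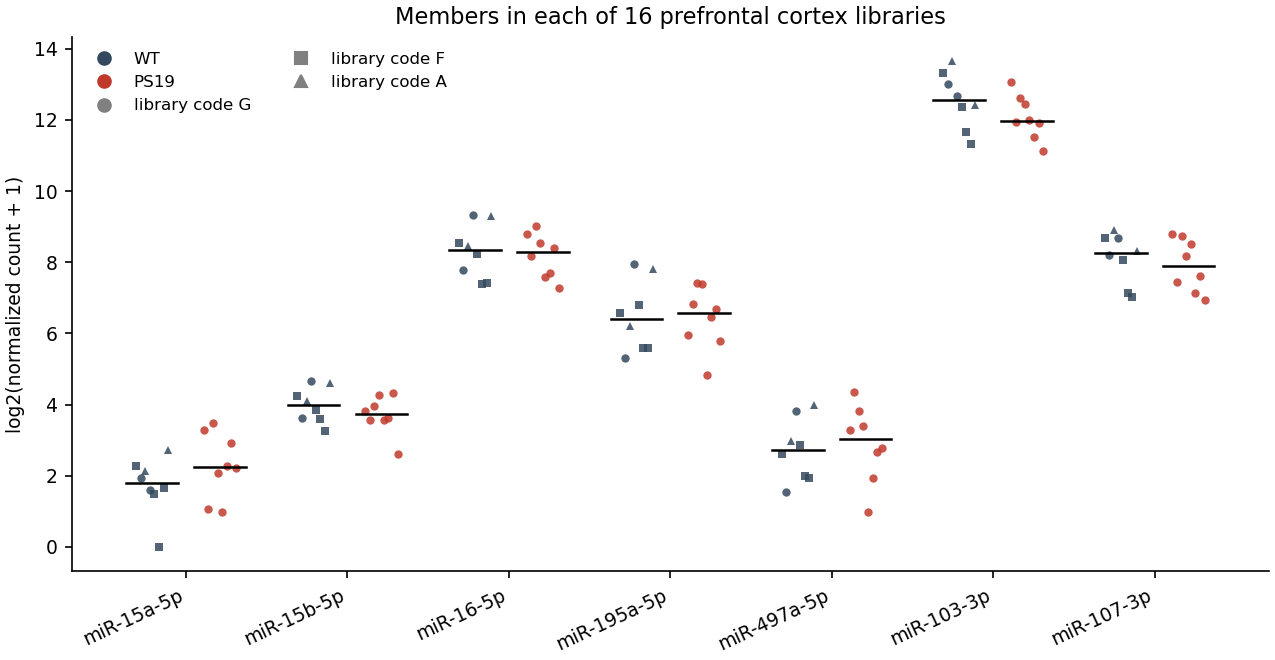
Levels of the 7 members in the 16 libraries as log2(normalized count + 1), with WT in dark blue, PS19 in red, the marker shape giving the first letter of the library code and the black line the group median. Within every member the PS19 and WT points overlap, and miR-103-3p lies above all other members.

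None of the 6 members that passed the filter differed between genotypes by the adjusted or the unadjusted p (0 of 6, where 4.0% of all tested features had an unadjusted p under 0.05). All 6 had an adjusted p of 0.9998 (limma, Benjamini-Hochberg over 6024 features), and the count of unadjusted calls was also 0 with DESeq2 and with edgeR, but 1, miR-103-3p, after scaling to the mature miRNA total. The PS19 mean was the lower in 5 of the 6 and the higher in miR-497a-5p, and the median difference was -0.16 on the log2(value + 1) scale. Among all 534 tested mature miRNAs the median was -0.12 and 350 (65.5%) were lower in PS19, and over all tested features the median was -0.02. Single libraries moved the median of mature miRNAs, to 0.00076 with 267 of 534 lower without PS19 replicate 8 and to -0.26 with 421 lower without WT replicate 7.

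miR-103-3p, which is known for acting on Dicer and on insulin signalling, had the widest gap between group means of the 6. It ranged from 2215 to 8555 normalized counts in PS19, with a median of 4013, and from 2579 to 12864 in WT, with a median of 6030. Only 2 of 8 PS19 libraries lay above the WT median, and the highest 2 values, 12864 in WT replicate 3 and 10241 in WT replicate 1, were both WT, but the ranges overlapped over most of their length. The group means were 4670.5 ± 2043 for PS19 and 6807 ± 3497 for WT (SD, n = 8 each). The log2 difference was -0.48 with an SE of 0.32 (limma, unadjusted p = 0.146), and its 95% interval ran from -1.14 to 0.18. With 1 library left out at a time, the log2 difference ran from -0.66 without WT replicate 7 (limma, unadjusted p = 0.0411) to -0.32 without WT replicate 3 (unadjusted p = 0.309), and 1 of the 16 fits had an unadjusted p under 0.05.

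Taken as a share of the mature miRNA signal of its own library, miR-103-3p made up 0.106% ± 0.0204 in the PS19 libraries and 0.144% ± 0.0318 in those of WT (SD, n = 8 each). The share ran from 0.0825% to 0.142% in PS19, with a median of 0.0991%, and from 0.115% to 0.204% in WT, with a median of 0.129%. In 7 of 8 PS19 libraries it was below the WT median, PS19 replicate 7 being the exception. When all values were scaled to the mature miRNA total before the fit, miR-103-3p had a log2 difference of -0.43 with an SE of 0.18 (limma, unadjusted p = 0.0302, adjusted p = 0.9999), and 2.06% of all tested features passed that unadjusted threshold. On the deposited normalized counts, not scaled to the mature miRNA total, the fit with the code letter as a term gave a difference of -0.77 with an SE of 0.51 (limma, unadjusted p = 0.146). The 2 WT libraries of code G had shares of 0.178% and 0.134%. The vessel-wall markers miR-126a-3p, miR-143-3p and miR-145a-5p were all tested (3 of 3). None passed the unadjusted threshold and none was at 0 in any library. Their summed normalized counts, not scaled to the mature miRNA total, were under the median of WT in 7 of the 8 PS19 mice. The sum came to 15206 to 61634 in PS19 and 17840 to 60601 in WT. On the same unscaled counts, miR-103-3p was under the median of WT in 6 of the 8 PS19 mice. The part of these markers in the level of miR-103-3p was not tested.

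A row of the circRNA annotation, mmu_circ_0002999, carried almost the same counts as miR-103-3p. Its mean was 5697 against 5739, the correlation on the log2 scale was 0.99998 and the counts never differed by more than 95 reads in a library. Its log2 difference between genotypes was -0.48, which is no second observation of miR-103-3p. miR-107-3p had 3 such rows, mmu_circ_0007709, mmu_circ_0007710 and mmu_circ_0007711, with log2 differences of -0.22, -0.19 and -0.19. The last 2 of them held identical values. These rows were found after their values were seen.

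miR-107-3p, which sits in Pank1 and differs from miR-103-3p at 1 base, ranged from 122 to 441 normalized counts in PS19 with a median of 243, and from 128 to 479 in WT with a median of 306. The ranges nearly coincided. The means were 269 ± 128 (SD, n = 8) and 305 ± 127 (SD, n = 8), a log2 difference of -0.20 with an SE of 0.33 (limma, unadjusted p = 0.547, 95% interval -0.88 to 0.48). It was -0.36 without WT replicate 7 and -0.06 without PS19 replicate 8. As a share of mature miRNA signal it was 0.00619% ± 0.00225 in PS19 and 0.00658% ± 0.00102 in WT (SD, n = 8 each), with 4 of 8 PS19 libraries on either side of the WT median. PS19 replicate 5 held the highest share of all libraries, 0.0108%.

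miR-16-5p, the most abundant of the miR-15 group and a repressor of cyclins, ranged from 155 to 512 normalized counts in PS19 with a median of 313, and from 166 to 637 in WT with a median of 327. WT replicates 4 and 8, at 637 and 632, stood above all PS19 libraries, and the remaining libraries of both genotypes were interleaved. The means were 314 ± 127 (SD, n = 8) and 356 ± 188 (SD, n = 8). The log2 difference was -0.12 with an SE of 0.32 (limma, unadjusted p = 0.706, 95% interval -0.78 to 0.54), and it took a positive sign, at most 0.02, when PS19 replicate 8, WT replicate 4 or WT replicate 8 was left out.

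miR-195a-5p, which has nearly the sequence of miR-16-5p, ranged from 27.5 to 169 normalized counts in PS19 with a median of 93.7, and from 39.0 to 247 in WT with a median of 84.2. The same WT libraries, replicates 4 and 8, were the highest, at 247 and 221. Mean and median pointed in opposite directions, with means of 97.4 ± 51.4 for PS19 and 110.1 ± 80.8 for WT (SD, n = 8 each). The log2 difference was -0.07 with an SE of 0.41 (limma, unadjusted p = 0.875, 95% interval -0.92 to 0.79), and leaving out single libraries moved it between -0.23 and 0.16.

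The 3 least abundant members rested on few reads. miR-15b-5p had 7 to 32 recovered reads per library. It ranged from 5.12 to 19.0 normalized counts in PS19 with a median of 12.2, and from 8.49 to 24.1 in WT with a median of 14.8. WT replicates 4 and 8 again held the highest 2 values, and 6 of 8 PS19 libraries lay below the WT median. The log2 difference was -0.27 with an SE of 0.27 (limma, unadjusted p = 0.323, 95% interval -0.84 to 0.29), and -0.12 without PS19 replicate 8.

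miR-497a-5p, the cluster partner of miR-195a-5p, had 1 to 18 reads. It ranged from 0.983 to 19.5 normalized counts in PS19 with a median of 7.29, and from 1.90 to 14.9 in WT with a median of 5.68. PS19 held both the highest value, in replicate 2, and the lowest, in replicate 5. The log2 difference was 0.19 with an SE of 0.45 (limma, unadjusted p = 0.679, 95% interval -0.74 to 1.12), and without PS19 replicate 2 it was -0.02.

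miR-15a-5p had a mean of 3.73 normalized counts and 0 to 11 reads, so it did not pass the filter and was not among the tested members. It ranged from 0.983 to 10.1 in PS19 with a median of 3.73, and from 0 to 5.60 in WT with a median of 2.49. In WT replicate 6 it had 0 reads, which allows up to 3 reads, or 3.0 normalized counts. The WT median was exceeded in 6 of the 8 PS19 mice. In the fit without a filter, on 17088 features, the log2 difference was 0.56 with an SE of 0.43 (limma, unadjusted p = 0.204, adjusted p = 0.9999), and no difference was detected.

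**Figure D2:**
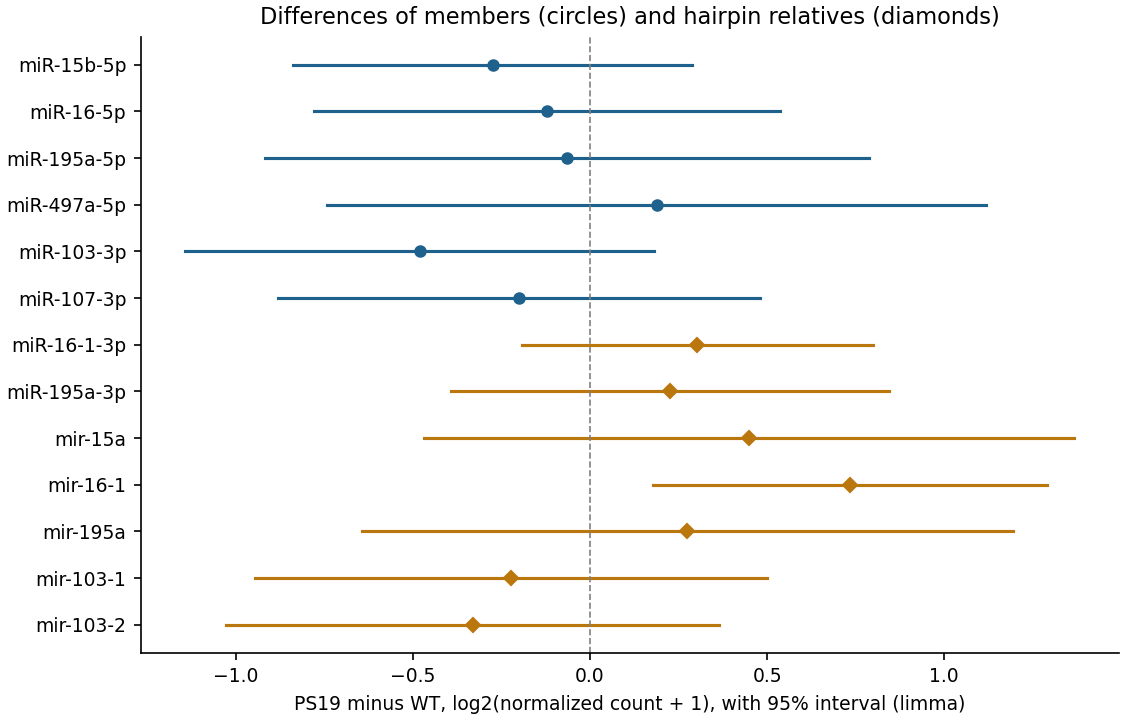
PS19 minus WT difference on the log2(normalized count + 1) scale with its 95% interval from limma, for the 6 tested members (blue circles) and the 7 tested hairpin relatives (brown diamonds). The intervals of all 6 members include 0, and of the relatives that of the mir-16-1 row, 0.18 to 1.29, does not.

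A ratio of 2 members' counts within a library does not depend on how libraries were scaled, and ranges and medians below are of such plain ratios. For the test, 1 was added to both counts before the log2, which brings back some dependence on the scaling for members with few reads. The 5 ratios were compared by a two-sided exact permutation test over 12870 assignments of the 8 and 8 libraries, with p-values adjusted over the 5, and none passed the adjusted threshold. The ratio of miR-103-3p to miR-107-3p was 11.2 to 22.8 in PS19 with a median of 19.3, and 16.05 to 28.1 in WT with a median of 21.6. In 7 of the 8 PS19 mice it was under the median of WT. The PS19 minus WT difference of the mean log2 ratio was -0.28, 4.15 ± 0.32 against 4.43 ± 0.29 in WT (SD, n = 8 each, exact permutation p = 0.0892, adjusted p = 0.149). Both groups overlapped, with WT replicates 4 and 8 among the low values.

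The ratio of miR-15a-5p to its cluster partner miR-16-5p ran from 0.00375 to 0.0236 in PS19 with a median of 0.0189, and from 0, in WT replicate 6, to 0.0130 in WT with a median of 0.0093. The mean log2 ratio was higher by 0.68 in PS19 (exact permutation p = 0.0766, adjusted p = 0.149). The ratio of miR-15a-5p to miR-15b-5p, which come from different clusters, was higher by 0.83 on the log2 scale in PS19 (exact permutation p = 0.0617, adjusted p = 0.149), with medians of 0.339 in PS19 and 0.212 in WT. Both rest on the 0 to 11 reads of miR-15a-5p and moved with the pseudocount. With 5 added in place of 1, the log2 differences were 0.42 (exact permutation p = 0.139, adjusted p = 0.232) and 0.51 (exact permutation p = 0.0402, adjusted p = 0.201). Both ratios overlapped between genotypes, and in each of them 5 of the 8 PS19 mice exceeded the median of WT.

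The ratio of miR-15b-5p to miR-16-5p, partners in the Smc4 intron, had medians of 0.0429 in PS19 and 0.0472 in WT, and the mean log2 difference was -0.15 (exact permutation p = 0.403, adjusted p = 0.403). That of miR-195a-5p to miR-497a-5p had medians of 15.2 and 17.2 and a mean log2 difference of -0.25 (exact permutation p = 0.369, adjusted p = 0.403). PS19 spread more widely in the latter, from 5.78 to 30.3 against 10.8 to 20.5 in WT, and the difference in spread was not tested. Summed over seeds, the 5 miR-15 group members came to 437 ± 174 for PS19 and 492 ± 278 for WT, and miR-103-3p with miR-107-3p to 4939 ± 2156 and 7112 ± 3610.5 (SD, n = 8 each, with no test).

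**Figure D3:**
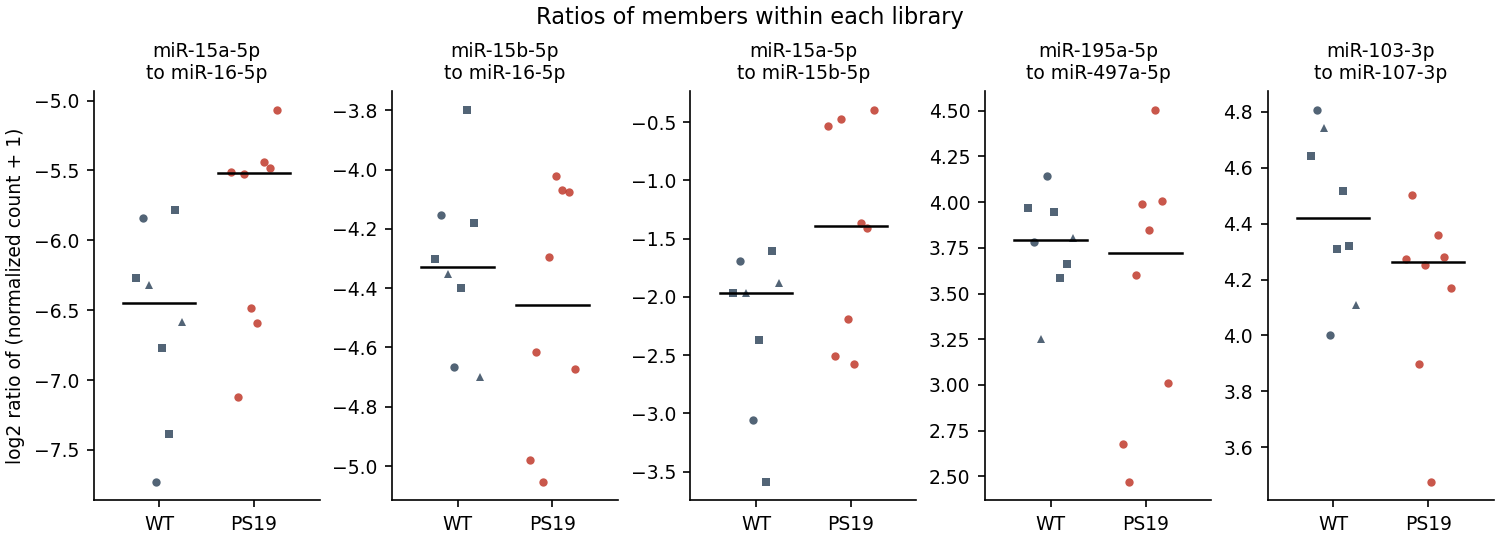
log2 ratio of (normalized count + 1) for 5 pairs of members within each library, WT left and PS19 right in each panel, with marker shapes for the first letter of the library code (circle G, square F, triangle A) and a black line at the group median. The groups overlap in all 5 panels, and each panel has its own vertical scale.

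The levels of several members went up and down together from library to library. Over the 16 libraries, on log2(value + 1), Pearson r was 0.85 between miR-15b-5p and miR-16-5p, 0.83 between miR-195a-5p and miR-497a-5p and 0.82 between miR-16-5p and miR-195a-5p, which lie on different chromosomes. miR-103-3p and miR-107-3p had an r of 0.89, whereas miR-15a-5p, with its few reads, was at 0.54 to its cluster partner miR-16-5p. All libraries share 1 scale factor per library, which by itself raises r, so the values were also taken as shares of the mature miRNA total. There the pair within the miR-497 cluster was at 0.78, miR-16-5p with miR-195a-5p at 0.82 and miR-103-3p with miR-107-3p at 0.58. Between the miR-15 group and the miR-103 group the values on that scale ran from -0.39 to 0.28, with miR-103-3p at -0.39 to miR-195a-5p and at -0.07 to miR-16-5p. A share of a total can make r negative by construction, and these correlations are descriptions with no test.

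**Figure D4:**
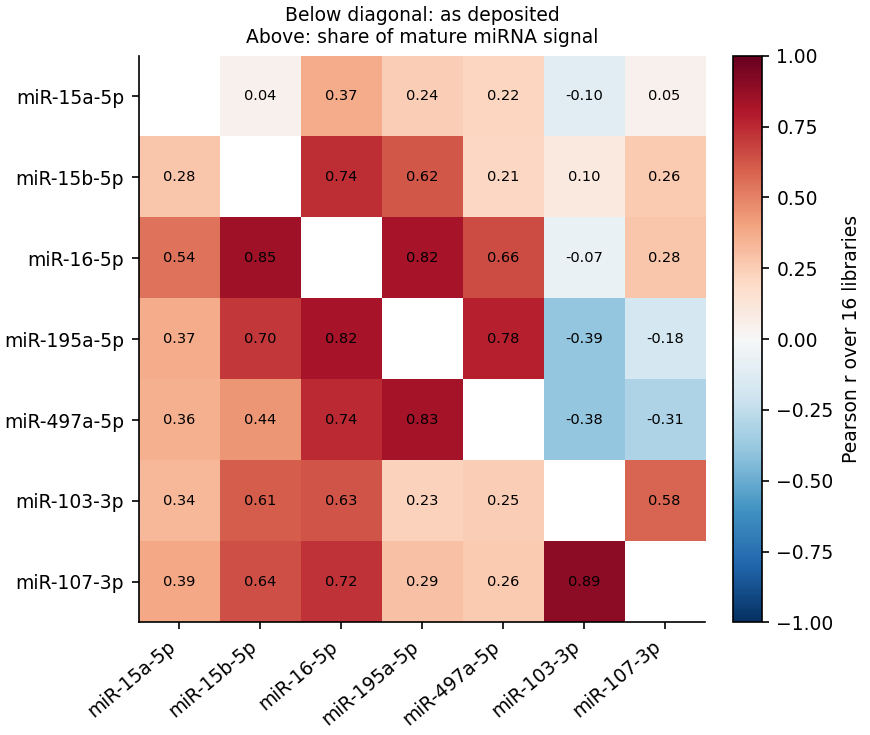
Pearson r over the 16 libraries between every pair of members, below the diagonal from log2(normalized count + 1) and above it from values scaled to the mature miRNA total of each library. Red is positive and blue negative. The darkest cell is that of miR-103-3p and miR-107-3p below the diagonal, at 0.89, and the blue cells lie between miR-103-3p or miR-107-3p and members of the miR-15 group.

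Among mature miRNAs that passed the filter, the nearest in pattern was looked for by r over the 16 libraries. For miR-15b-5p and miR-497a-5p the nearest was another member, miR-16-5p and miR-195a-5p respectively. miR-16-5p was closest to miR-101a-3p (r = 0.97, and 0.85 on the share scale) and then to miR-181a-1-3p (0.95 and 0.89). miR-195a-5p was closest to miR-181a-1-3p (0.90 on both scales) and then to miR-129-1-3p (0.86 and 0.87), which was also second for miR-497a-5p (0.80 and 0.76). The second for miR-15b-5p was miR-101a-3p (0.85 and 0.54). miR-103-3p was closest to miR-185-5p (0.97 and 0.84) and miR-153-5p (0.97 and 0.85), and miR-107-3p to miR-26b-5p (0.95 and 0.80) and miR-148b-3p (0.93 and 0.79). The sparse miR-15a-5p reached 0.70 with miR-499-5p and 0.67 with miR-34b-5p.

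The hairpins that yield the members also yield a second arm, and the table lists precursor rows besides. Of 20 names looked for, 15 rows were found and 7 passed the filter. In PS19, 5 of these 7 had the higher and 2 the lower mean, where 2819 of all 6024 tested features and 184 of the 534 tested mature miRNAs were higher. The rows are not independent, since miR-16-1-3p and mir-16-1 share a hairpin, as do miR-195a-3p and mir-195a. The median of the 7 log2 differences was 0.27, and 1 row had an unadjusted p under 0.05, where 4.0% of all features did. The 2 lower were the precursor rows of miR-103, at -0.22 for mir-103-1 and -0.33 for mir-103-2. Other arms shown here are those with enough reads to be measured.
miR-16-1-3p: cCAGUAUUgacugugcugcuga
miR-195a-3p: cCAAUAUUggcugugcugcucc

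miR-195a-3p, the arm opposite miR-195a-5p, was the more abundant arm of its hairpin in 16 of 16 libraries, with a ratio of 1.57 to 5.49 and a median of 3.68. It ranged from 145 to 613 normalized counts in PS19 with a median of 323, and from 168 to 388 in WT with a median of 283. The log2 difference was 0.23 with an SE of 0.30 (limma, unadjusted p = 0.458), 0.089 without PS19 replicate 3 and 0.39 without PS19 replicate 5. For miR-16 the other arm was the lower, with miR-16-5p 5.05 to 22.6 times miR-16-1-3p, although miR-16-5p also sums a second locus. miR-16-1-3p ranged from 28.5 to 78.1 in PS19 with a median of 43.4, and from 24.8 to 52.5 in WT with a median of 30.7, with 6 of the 8 PS19 mice over the median of WT. The log2 difference came to 0.30 with an SE of 0.24 (limma, unadjusted p = 0.218).

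The precursor row mir-16-1 was the only hairpin relative with an unadjusted p under 0.05. Its hairpin lies on chromosome 14 (chr14:61631880-61631972, minus strand) in an exon of Dleu2, and is shown with both mature arms in capitals, miR-16-5p first and miR-16-1-3p second.
Mir16-1: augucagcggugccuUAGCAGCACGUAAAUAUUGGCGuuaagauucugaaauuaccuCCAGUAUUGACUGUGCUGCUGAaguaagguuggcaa

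The mir-16-1 row ranged from 8.05 to 29.9 normalized counts in PS19 with a median of 13.4, and from 6.0 to 12.8 in WT with a median of 8.03, on 5 to 28 reads per library. All 8 PS19 libraries lay above the WT median, and the groups overlapped between 8.05 and 12.8. The means were 15.99 ± 7.45 for PS19 and 8.78 ± 2.69 for WT (SD, n = 8 each), and the log2 difference was 0.73 with an SE of 0.27 (limma, unadjusted p = 0.0120, adjusted p = 0.9998), which does not pass the adjusted threshold. Over the alternatives its unadjusted p ranged from 0.00453 to 0.161, the highest being with the code letter in the fit, where the difference was 0.63. The markers of microglia and blood leukocytes, miR-223-3p, miR-142a-3p, miR-142a-5p and miR-155-5p, had summed levels of 52.7 to 208 in PS19 and 31.7 to 87.1 in WT and likewise exceeded the median of WT in 8 of 8 PS19 mice. Of these 4 only miR-155-5p passed the filter (log2 difference 0.78, limma, unadjusted p = 0.0167, adjusted p = 0.9998), and miR-142a-3p was at 0 in 6 libraries, 5 of them WT. miR-142a-3p had means of 3.75 in PS19 and 1.02 in WT, exceeded the median of WT in 7 of 8 PS19 mice and had a log2 difference of 1.21 in the fit without a filter (limma, unadjusted p = 0.0133, adjusted p = 0.9999). miR-142a-5p had means of 2.38 in PS19 and 2.14 in WT and exceeded the median of WT in only 3 of 8 PS19 mice. Its log2 difference in the fit without a filter was 0.10 (limma, unadjusted p = 0.804). miR-155-5p made up most of the sum, with a mean of 82.5 of 91.2 in PS19, while miR-223-3p, at 2.62 in PS19 and 4.71 in WT, was below the median of WT in 8 of 8 PS19 mice. Their part in the mir-16-1 row was not tested.

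**Figure D5:**
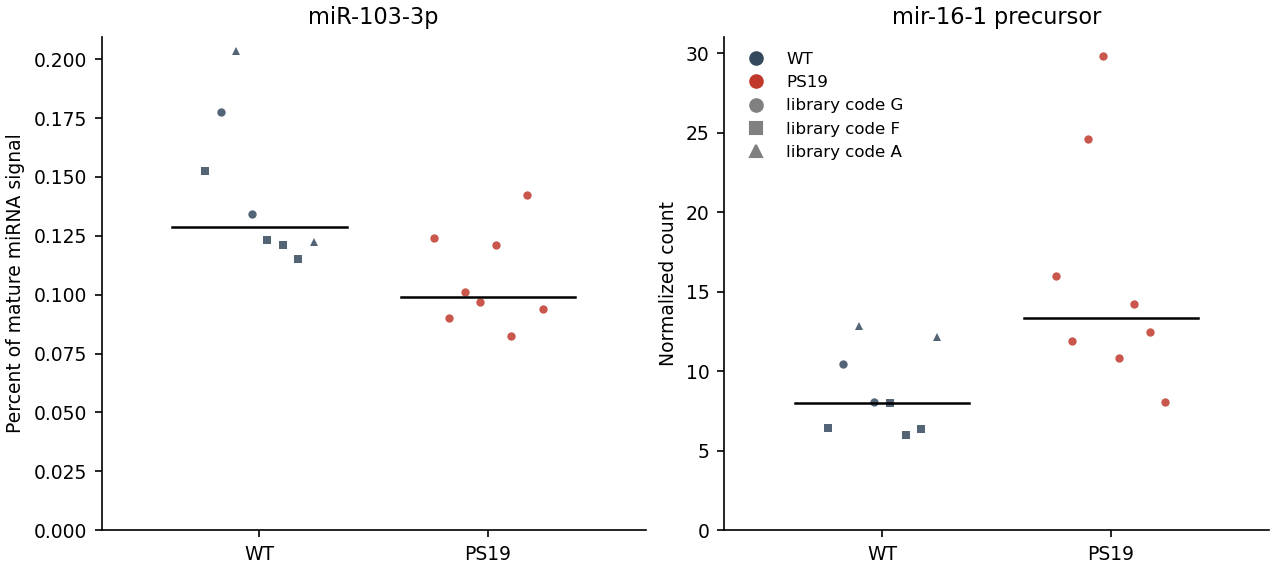
Left, miR-103-3p as a percent of the mature miRNA signal of each library, and right, normalized count of the mir-16-1 precursor row, with WT in dark blue, PS19 in red, marker shapes for the first letter of the library code and black lines at the medians. The share is below the WT median of 0.129% in 7 of 8 PS19 libraries, and mir-16-1 is above the WT median of 8.03 in all 8.

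Outside the 7 members, 5 mature miRNAs in RefSeq hold the shared core within their first 8 bases, and 1 of them, miR-322-5p, had a row. It averaged 0.691 normalized counts, on 0 to 4 reads, and did not pass the filter. In the fit without a filter its log2 difference was -0.66 with an SE of 0.33 (limma, unadjusted p = 0.0549, adjusted p = 0.9999). miR-503-5p, which differs from the core in its last base, was looked up after its values were seen. It ranged from 4.39 to 14.6 normalized counts in PS19 and from 3.02 to 19.7 in WT, with a log2 difference of -0.09 and an SE of 0.34 (limma, unadjusted p = 0.784).
miR-503-5p: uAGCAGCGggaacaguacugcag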

How the data were processed

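Small RNA libraries were made from prefrontal cortex of 8 PS19 and 8 WT mice, and groups were taken from the genotype label. The authors mapped the reads with STAR 2.5.3a, run by the small RNA pipeline COMPSRA. The submitters' processing notes name DESeq2 1.42.1 and the build mm10. The deposited values are a normalized signal, namely read counts over a size factor for each library. Dividing by the smallest value above 0 gave whole reads for 100% of values in all libraries (tolerance 0.01 reads). In 2 of them, WT 4 and WT 6, that smallest value was close to 1, which makes the evidence weaker. How reads that match several rows were counted is not given in the sources used here. The deposited table also holds the authors' log2 fold changes, their Wald score and their p-values, which were not used. No column of sample values was left unused (0).

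Values were analysed as log2(value + 1), which understates the change of low features, with features of mean at least 5 kept. limma 3.58.1 in R 4.3.3 (lmFit, eBayes with trend, genotype only) was fitted to all 6024 features, and two-sided p-values were adjusted by Benjamini-Hochberg over all of them. Ratios within a library were tested by exact permutation (two-sided) in Python 3.11.15 with numpy 2.4.6. The fit was tested on simulated data. Alternatives were DESeq2 1.42.0 and edgeR 4.0.16 on recovered reads, scaling to the library or mature miRNA total, no filter, a stricter filter (mean 20), a pseudocount of 0.5 or 5, weights per array, the replicate number as a block, the code letter as a term, and each library left out.

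All 7 members are named. Of the hairpin and seed relatives that passed the filter, those with an unadjusted p under 0.05 and the 3 with the highest mean are named, and for likeness the 2 miRNAs of highest r per member. The other precursor rows, miR-503-5p and the circRNA rows were named after their values were seen. The planned core of 6 bases proved to be 7 bases long, and the run found was used. Members and lists were chosen with earlier results of these data known. Over 8 lists of cell type and tissue markers, 18 of 23 miRNAs were tested, 9 higher and 9 lower in PS19, and 1, miR-155-5p, had an unadjusted p under 0.05. The 56 pairs of libraries within a group all differed beyond sampling noise (chi-square per degree of freedom at least 45.5). Plasma vesicle libraries were not analysed here.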

Additional observations from a re-analysis of the deposited data

Results flagged for a closer look

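Of the 30 sets of 8 values examined, those of the 7 members, 3 hairpin relatives and 5 ratios in each genotype, 1 held a library far from the others. miR-16-1-3p was at 78.1 normalized counts in PS19 replicate 3, where the next highest PS19 library was at 50.9, a gap of 0.548 of the range of the group. Chance alone marks about 1 in 20 such sets. Without that library the log2 difference of miR-16-1-3p was 0.18 in place of 0.30.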

How the results depend on the processing

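None of the members passed the adjusted threshold under any of the 27 alternatives, the smallest adjusted p being 0.678. At an unadjusted p under 0.05 the count was 0 of 6, and 1 of 6, miR-103-3p, after scaling to the mature miRNA total and with the replicate number as a block (limma, unadjusted p = 0.0264, adjusted p = 0.678). Leaving out single libraries gave 0 to 1, the 1 being miR-103-3p without WT replicate 7. The log2 difference of miR-103-3p stayed between -0.77 and -0.32 throughout. Leaving out single libraries turned the sign of miR-16-5p (range -0.25 to 0.023), miR-195a-5p (-0.23 to 0.16) and miR-497a-5p (-0.019 to 0.46), and the cause was not tested. Of the hairpin relatives, 1, mir-16-1, had an unadjusted p under 0.05, and 0 with a mean of at least 20, where mir-16-1 was not tested, or with the code letter in the fit. The ratios were rerun with a pseudocount of 0.5 or 5, the replicate number as a block and each library left out. A further run used libraries of code G only, 8 PS19 and 2 WT, and the other alternatives were not run for ratios. No ratio passed the adjusted threshold in these runs. The log2 difference of miR-15a-5p to miR-16-5p ran from 0.42 to 0.88, of miR-15a-5p to miR-15b-5p from 0.51 to 0.997, of miR-15b-5p to miR-16-5p from -0.22 to -0.06, of miR-195a-5p to miR-497a-5p from -0.45 to -0.10 and of miR-103-3p to miR-107-3p from -0.34 to -0.18. DESeq2 gave no adjusted p for miR-497a-5p.

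Over all features, unadjusted calls numbered 241 with the reported fit, 124 with the mature miRNA total, 119 with the code letter, 136 of 2510 with a mean of at least 20, 680 of 17088 without a filter, 418 with array weights, 419 with the block, and 171 to 321 with 1 library left out. Samples with the same replicate number deviated together in 6 of 8 pairs (r over 0.1, range 0.0446 to 0.456), and 2 of 8 PS19 libraries correlated best with their own number, so the numbers were not taken to pair the samples. The block changed no adjusted call of a member or relative. Fewer than 20 reads for miR-15a-5p and miR-497a-5p limit what could be seen of them.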
